A study of Mus musculus with 99 samples.

Results

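RNA-seq of Parental mouse embryonic stem cells (ESCs), with and without deletion of Ring1b, is described here across all expressed genes. The 4 libraries were taken by their labels from the 99 samples of the series, and 18154 of the 55341 gene names in the count table had enough reads to be tested. Parental cells are ROSA26::creERT2 Ring1a-/-; Ring1b fl/fl ESCs of strain 129P2/Ola, so RING1A was absent in every library of this line. For 72 h they received 4-hydroxytamoxifen (OHT) at 0.5 µM, which lets the CreERT2 recombinase excise Ring1b (+OHT, 2 replicates), or with ethanol as vehicle (−OHT, 2 replicates). Derivatives of this line that carried a transgene for RING1B WT or for the catalytic mutant RING1B I53S, and ROSA26::creERT2 Eed fl/fl ESCs that keep their Ring1a gene, received the same dose for the same time, with 2 replicates per group. All were grown on gelatin in 2i/LIF medium, which holds ESCs close to the naive state of the early epiblast. The RNA was reverse-transcribed and sequenced by SMART-seq2, and each library is a bulk sample, in which a change in the number of expressing cells and a change in RNA per cell cannot be told apart. The replicates are stated to be biological, but those of each group come from a single line. The p-values rest on a spread between replicates pooled over the 12 libraries fitted together, in 6 groups. They therefore do not measure the spread of Parental cultures alone, nor that between independent lines.

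Polycomb repressive complex 1 (PRC1) is built around RING1A or RING1B, which attach ubiquitin to a lysine of histone H2A (H2AK119ub1). Canonical PRC1 contains CBX proteins that bind the H3K27me3 mark made by PRC2, while variant PRC1 forms contain RYBP or YAF2 in place of CBX and reach chromatin independently of that mark. In ESCs these complexes sit mainly at CpG-rich promoters of developmental regulators, which are silent or nearly silent until differentiation. The comparison asked how the transcriptome changes once both RING1 proteins are missing.

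The targeted gene was examined first. Rnf2, the gene for RING1B (chr1:151458004-151500955, mm10), had 198 and 257 CPM (counts scaled to a common library size) in −OHT replicates 1 and 2 and 144 and 167 CPM in +OHT replicates 1 and 2. The groups did not overlap. The log2 fold change was −0.55 with a standard error of 0.20 (edgeR adjusted p = 0.035), under the fold threshold. Counts were summed over the whole gene, so they can include reads from exons outside the floxed part, and this value does not measure the deletion. Reads of single exons were not examined, and the source of the remaining reads was not tested. Ring1, the gene for RING1A, was at 2.69 and 1.98 CPM without and 1.11 and 1.46 CPM with OHT, its log2 fold change of −0.87 being within error (adjusted p = 0.21). At the level of chromatin, the ChIP-seq lists of the same line held 5073 RING1B peaks without OHT and 690 with OHT, with 1 library per condition. H2AK119ub1 peaks numbered 12648 without and 5450 with OHT, and H3K27me3 peaks 18245 and 14283. A number of peaks does not measure the amount of a mark. By western blot, the paper reports a global loss of H2AK119ub1 in Parental cells treated with OHT. From ChIP-seq scaled by added fly chromatin, it reports complete loss of the mark at PRC1 target loci in RING1B I53S cells.

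A gene was called higher or lower where its log2 fold change reached 1.5 in size and its FDR (Benjamini-Hochberg) lay below 0.05 in the quasi-likelihood test of edgeR. By this rule 2748 genes (15.1% of those tested) were higher and 333 (1.83%) lower with OHT, and without the fold threshold the shares were 21.9% and 12.4%. These 4 percentages are the background against which the counts for each gene group are to be read. The median log2 fold change was 0.03 over all genes, 2.8 over the genes higher and −2 over those lower. Of the genes higher, 571 had a log2 fold change between 1.5 and 2, 946 between 2 and 3, 871 between 3 and 5, and 360 of 5 or more. Among the genes lower, 164 lay between −1.5 and −2 and only 5 at −5 or beyond. For 221 of the higher genes both −OHT libraries held no read. For these a fold change is given as a lower bound, against 3 counts over the group, and the median of the higher genes was 2.76 with them at their bound.

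The transcriptome became broader while few reads moved. Genes at 1 CPM or more numbered 14893 and 14583 in the −OHT libraries and 16669 and 16409 in the +OHT libraries. The 2748 higher genes together took 0.734% and 0.592% of the counts without OHT and 3.8% and 4.02% with OHT. The 333 lower genes went from 2.14% and 2.17% of the counts to 0.573% and 0.526%. Mitochondrially encoded transcripts held a similar share in all 4 libraries, 2.43% and 3.07% without and 2.43% and 2.89% with OHT. Total counts per library ranged from 8967223 to 12743460. Scaling by library totals in place of TMM moved the median of all genes from 0.03 to 0.23 on the log2 scale, and log2 fold changes are given on the TMM scale. Because reads were counted without strand and 38.8% of the called genes (1195) overlap an annotated gene on the opposite strand, the calls of such genes can include reads from the neighbour.

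The share of genes called varied with the level at which a gene started. Starting levels were taken from the 4 −OHT libraries of the RING1B WT and RING1B I53S lines, which took no part in the Parental contrast, and are in CPM without correction for gene length. Among all 1874 protein-coding genes between 0.5 and 2 CPM, 841 (44.9%) were higher in Parental cells with OHT. The share was 35.9% between 0.1 and 0.5 CPM, 22.7% between 2 and 10 CPM and 2.38% between 10 and 50 CPM. Above 200 CPM 1 of 1108 genes (0.0903%) was higher. Below 0.1 CPM 287 of 6144 genes (4.67%) were higher, of which only 322 had enough reads to be tested at all. The share of genes lower was 0 in the lowest class, where a gene with almost no reads can hardly be called lower. It was 1.59% between 2 and 10 CPM, 1.48% between 10 and 50 CPM, 1.69% between 50 and 200 CPM and 2.35% in the highest class. Within each class of starting level under 200 CPM, genes with a RING1B peak at the promoter were higher more often than genes without one. In the class above, 0 of 61 genes with a peak and 1 of 1047 without one were higher. Between 0.5 and 2 CPM 68.4% (496 of 725) of genes with a peak and 30.03% (345 of 1149) of genes without one were called higher, and between 2 and 10 CPM 42.2% and 12.4%.

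**Figure D1:**
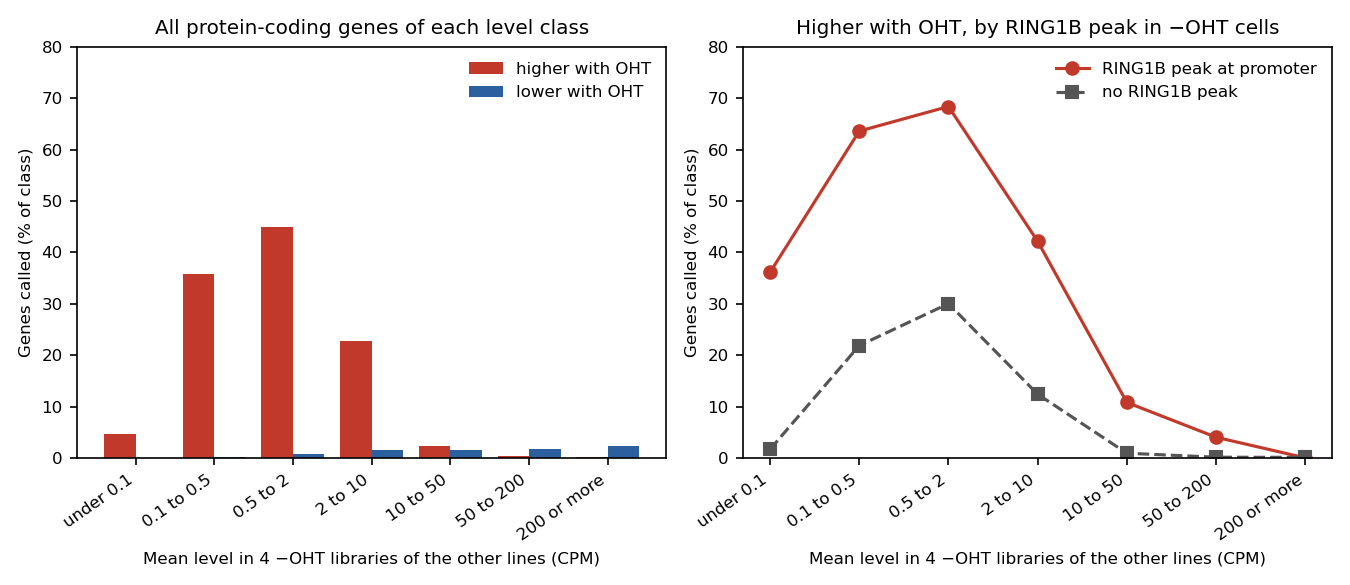
Share of protein-coding genes called in Parental cells with OHT, in percent on the y axis, by mean starting level in CPM in the 4 −OHT libraries of the RING1B WT and RING1B I53S lines on the x axis: the left panel shows genes higher (red bars) and lower (blue bars), and the right panel genes higher among those with (red circles) and without (grey squares) a RING1B promoter peak. Genes with a peak are called higher most often between 0.5 and 2 CPM (68.4%), and above 200 CPM 1 of 1108 genes is called higher.

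Promoter state before OHT separated the genes that were higher from those that were lower. A promoter was taken as 2.5 kb to either side of an annotated start, and a gene as marked when a peak of the −OHT Parental library overlapped it. RING1B peaks lay at 60.6% of the genes higher (95% Wilson interval 58.7 to 62.4), 12.7% of the genes not called and 6.91% of the genes lower (4.65 to 10.2). For H3K27me3 these shares were 79.7% (78.1 to 81.1), 19.8% and 8.11% (5.63 to 11.5), and for H2AK119ub1 62.8%, 19.5% and 10.8%. Subunits of canonical PRC1 followed the same order, with PCGF2 at 63.0% and CBX7 at 64.2% of the genes higher against 11.2% and 10.97% of those not called. PCGF6, which belongs to a variant PRC1 that reaches germline promoters through DNA-binding partners, was spread more evenly, at 48.6% of the genes higher and 28.8% of those not called. RYBP lay at 28.9% and 10.9%. In the +OHT libraries, RING1B peaks lay at 0.655% of the promoters of genes higher, 1.94% of those not called and 0.601% of those lower. H3K27me3 peaks lay at 60.04%, 15.9% and 6.61%. H2AK119ub1 peaks lay at 43.6% of the genes higher, a smaller share than without OHT, and at 20.9% of those not called and 16.5% of those lower, larger shares than without OHT. The peaks of the +OHT and −OHT libraries were not matched to each other, and the lists hold no read depth, so the signal behind a peak is unknown.

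Read from the promoter to the gene, 46.3% of the 3596 tested genes with a RING1B peak were higher and 7.44% of those without one. Where RING1B, H2AK119ub1 and H3K27me3 peaks coincided, 1411 of 2708 genes (52.1%) were higher and 11 lower. With H3K27me3 alone 280 of 1008 (27.8%) were higher, and with H3K27me3 and H2AK119ub1 but no RING1B peak 269 of 986 (27.3%). Promoters with H2AK119ub1 alone (36 of 821, 4.38%), with PCGF6 alone (37 of 2192, 1.69%) and with no such peak (461 of 9551, 4.83%) stayed under the background of 15.1%. That last class also held 255 of the 333 genes lower.

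**Figure D2:**
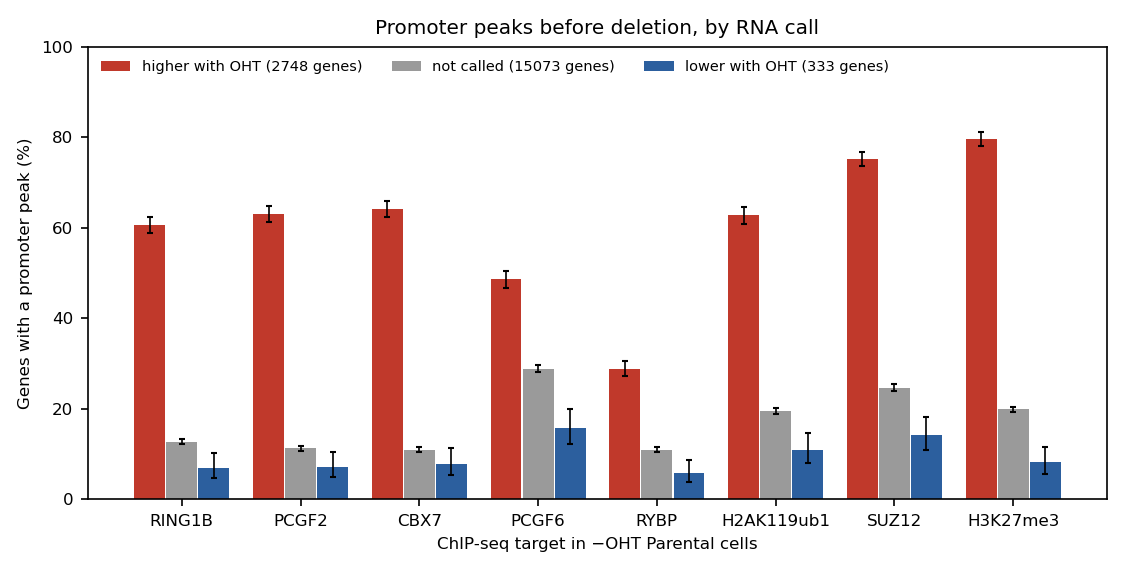
Share of genes whose promoter held a ChIP-seq peak in −OHT Parental cells, in percent on the y axis, by ChIP-seq target on the x axis, for genes called higher (red), not called (grey) and called lower (blue) with OHT. Error bars are 95% Wilson intervals, and for H3K27me3 the share is 79.7% of the genes higher and 8.11% of those lower.

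CpG density at the start site differed between these groups as well. In the 300 bases from 250 before to 50 after the start, genes higher held a median of 13 CpG, genes lower 6 and genes not called 16. The share of genes higher was 15.6% with 0 to 4 CpG, 19.7% with 5 to 9, 15.1% with 10 to 19 and 12.8% with 20 or more, all within a few points of the background. The share of genes lower was 4.19% with 0 to 4 CpG and 0.774% with 20 or more. As single examples that do not stand for their groups, start regions of Gata3, which rose, and Tdgf1, which fell, are printed. They are from RefSeq on GRCm38.p6, 5′ to 3′ on the gene's strand with each CG in capitals. That of Gata3 (chr2:9878551-9878850, minus strand) has 22 CG, above the median of 13 of the genes higher. That of Tdgf1 (chr9:110946109-110946408, minus strand) has 7 CG. Within 2.5 kb of an annotated start, Gata3 had RING1B, H2AK119ub1, H3K27me3 and PCGF6 peaks and Tdgf1 had none of these.
Gata3: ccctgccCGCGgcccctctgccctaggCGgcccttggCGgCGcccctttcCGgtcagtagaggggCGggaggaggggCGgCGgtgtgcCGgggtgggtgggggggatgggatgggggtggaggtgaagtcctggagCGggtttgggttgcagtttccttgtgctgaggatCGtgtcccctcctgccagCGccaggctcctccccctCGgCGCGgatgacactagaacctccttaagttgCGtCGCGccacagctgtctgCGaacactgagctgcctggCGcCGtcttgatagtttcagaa
Tdgf1: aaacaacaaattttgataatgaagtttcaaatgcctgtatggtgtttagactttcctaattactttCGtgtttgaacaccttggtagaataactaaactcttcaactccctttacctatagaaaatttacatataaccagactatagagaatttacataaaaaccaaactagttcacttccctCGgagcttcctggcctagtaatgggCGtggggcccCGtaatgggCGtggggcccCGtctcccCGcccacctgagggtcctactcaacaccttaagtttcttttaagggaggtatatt

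Genes of the differentiated lineages were examined as lists of markers and regulators. Over all 261 listed genes of the somatic and extraembryonic lineages, 226 were tested, 148 (65.5%) were higher and 8 lower, with a median log2 fold change of 2.44. A gene that is silent without OHT enters the test only if it has reads with OHT, so medians over tested genes lean upwards by construction and the untested members are counted beside them. The share of tested members higher ran from 83.3% for kidney and urogenital genes to 43.5% for neurons.

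Primitive endoderm is the extraembryonic layer that lines the blastocoel and secretes basement membrane. Of its 18 genes, 17 were tested, 14 rose and none fell, with a median log2 fold change of 2.51. Gata6, the factor that drives this lineage, had no read in either −OHT library and 5.29 and 5.26 CPM in the +OHT libraries, at least 35.8-fold higher (adjusted p = 4.1e-06). Pdgfra, its surface receptor, went from 1.14 and 0.618 CPM to 15.5 and 17.3 CPM, with a log2 fold change of 4.14 and a standard error of 0.44 (adjusted p = 9.1e-07). Both genes were near the floor without OHT and clearly separated with it. Structural genes of the basement membrane were already expressed. Col4a1, which encodes a collagen IV chain, rose from 8.07 and 8.16 to 68.1 and 89.4 CPM (log2 fold change 3.28, standard error 0.25, adjusted p = 2.1e-08). The laminin chain gene Lamb1 rose less, from 63.4 and 74.2 to 229 and 227 CPM (1.73, standard error 0.18, adjusted p = 9.1e-07). Gata4, Sox17, Sox7, Dab2, Col4a2, Amn, Lrp2, Fst and P4ha2 were among the other genes higher, while Lama1, Sparc and Srgn were not called and Cubn was not tested.

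Trophectoderm forms the placenta. In this list 18 of 26 tested genes (27 listed) rose and none fell, with a median of 2.33. Hand1, a regulator of trophoblast giant cells and of the heart, rose from 0.244 and 0.247 to 20.9 and 20.6 CPM (log2 fold change 6.33, standard error 0.46, adjusted p = 1.4e-08). Simple-epithelial keratins that mark the trophectoderm rose from a higher start, with Krt18 going from 36.3 and 31.2 to 159.5 and 179 CPM (2.33, standard error 0.22, adjusted p = 3.0e-07). The replicates of each group lay close together for both genes. Gata2, Dlx3, Plac1, Wnt7b and the X-linked Rhox6 and Rhox9 were also higher. Not every regulator of the lineage moved, since Eomes, Tfap2c, Tead4 and Ets2 were not called and Elf5 was not tested.

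Definitive endoderm and gut responded in fewer genes, 8 of 17 tested (23 listed), with a median of 0.92. The pioneer factor genes Foxa1 and Foxa2 were both higher. Foxa1 was at 0 and 0.124 CPM without and 4.36 and 3.41 CPM with OHT (log2 fold change 5.98, standard error 1.01, adjusted p = 1.4e-04). Foxa2 had no read without OHT and only 0.342 and 1.27 CPM with it, at least 5.25-fold higher (adjusted p = 0.01), and lost its call in 3 of the 4 fits with a library left out. Prox1, a regulator of liver and lymphatic development, rose from 0.244 and 0.371 to 7.26 and 9.07 CPM (4.72, standard error 0.56, adjusted p = 3.2e-06). The number of genes higher was 4 without −OHT replicate 2 and 4 when a mean of at least 1 CPM was required. Among genes of the differentiated liver and intestine, Afp, Alb and Ttr had too few reads to be tested and Apoa1, Apob, Hnf4a and Vil1 were not called.

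Mesodermal regulators gave some of the widest changes. Among cardiac and lateral mesoderm genes 19 of 23 tested (26 listed) were higher, with a median of 5.19, or 3.72 with the 8 genes silent without OHT at their bound. Tbx20, a cardiac T-box factor with reads in every library, rose from 4.32 and 2.72 to 25.8 and 32.5 CPM (log2 fold change 3.01, standard error 0.37, adjusted p = 5.1e-06). Hand2 and Foxf1 had no read in either −OHT library. With OHT they reached 3.59 and 3.70 CPM and 8.97 and 7.02 CPM, at least 24.7-fold and 54.7-fold higher (adjusted p = 1.1e-04 and 8.4e-06). Isl1, Mef2c, Tbx5, Twist1, Wt1 and Tcf21 were higher too, while Nkx2-5, Bmp4, Bmp7 and Snai1 were not called.

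In the paraxial mesoderm 9 of 15 tested genes (22 listed) rose, with a median of 2.87. Pax3, which marks the dermomyotome and the neural crest, went from 0.326 and 0.247 to 17.9 and 16.6 CPM (log2 fold change 5.82, standard error 0.45, adjusted p = 2.5e-08). Pax9, a gene of the sclerotome, went from 0 and 0.124 to 10.7 and 12.5 CPM (7.55, standard error 0.69, adjusted p = 1.8e-07). The myogenic factor gene Myod1 was at 0.570 and 0 CPM without and 3.50 and 2.24 CPM with OHT (3.09, adjusted p = 0.013), and its call was lost without −OHT replicate 2 or without +OHT replicate 1. Myog and Meox1 were not called. Kidney and urogenital genes rose in 15 of 18 cases, all of them tested, with a median of 4.69 (3.81 at the bounds). Pax2, which starts kidney development, rose from 0.0815 and 0.124 to 3.33 and 4.68 CPM (5.18, standard error 0.78, adjusted p = 4.8e-05). Sall1 went against the rest of the list and fell from 106 and 94.6 to 18.7 and 17.2 CPM (−2.49, standard error 0.22, adjusted p = 1.5e-07). Sall1 is also expressed in ESCs.

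Primitive streak genes moved in both directions. Of 15 tested (18 listed), 9 rose and 2 fell, with a median of 1.93. T (Brachyury), which marks the nascent mesoderm, rose from 1.47 and 1.73 to 7.09 and 5.07 CPM (log2 fold change 1.93, standard error 0.46, adjusted p = 0.003). Mixl1, Mesp1, Gsc, Lhx1, Wnt3 and Wnt3a were higher as well, and the number higher was 5 without −OHT replicate 2. The 2 genes lower were Lefty1 and Lefty2, which encode secreted antagonists of Nodal and are highly expressed in ESCs, with Lefty1 falling from 308 and 254 to 16.9 and 22.5 CPM (−3.83, standard error 0.27, adjusted p = 7.7e-09). In the blood and endothelium list 13 of 21 tested genes (24 listed) rose and 1 fell, with a median of 2.23. Tal1, which specifies blood, reached only 1.79 and 2.05 CPM, from 0 and 0.124 (4.96, standard error 1.03, adjusted p = 9.4e-04). Gata2 rose from 3.83 and 2.23 to 22.7 and 26.1 CPM (2.97, standard error 0.36, adjusted p = 4.8e-06). Pecam1, an endothelial adhesion molecule that ESCs also carry, was the gene that fell, from 265 and 249 to 48.8 and 43.8 CPM (−2.47, standard error 0.18, adjusted p = 1.1e-08).

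Ectodermal genes were read from regulators to late markers. Neural progenitor genes rose in 23 of 33 tested (38 listed) and fell in 1, with a median of 3.12, and 37 of the 38 had a RING1B peak at the promoter. Pax6, a master regulator of eye and forebrain, went from 0.978 and 0.618 to 10.4 and 7.70 CPM (log2 fold change 3.45, standard error 0.56, adjusted p = 9.1e-05). Otx1 rose from 0.733 and 0.618 to 25.9 and 27.7 CPM (5.26, standard error 0.49, adjusted p = 1.9e-07). Both genes lay without overlap between the groups. Sox11, Olig1, Olig2, Neurog1 and Sox21 were not called, and Sox1 and Neurog2 were among those with too few reads. With a mean of at least 1 CPM required, 13 genes were higher. Zic5 was the gene lower, from 31.6 and 32.8 to 6.40 and 4.87 CPM (−2.51, standard error 0.28, adjusted p = 2.0e-06).

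Genes of differentiated neurons rose in 10 of 23 tested (28 listed) and fell in 2, with a median of 1.11. The neurofilament gene Nefh rose from 10.4 and 9.40 to 44.2 and 45.9 CPM (log2 fold change 2.18, standard error 0.26, adjusted p = 3.5e-06). Tubb3 and Stmn2, which encode a tubulin and a tubulin-binding protein of neurons but were well expressed in these ESCs, fell instead, from 90.3 and 63.0 to 25.3 and 19.8 CPM (−1.77, standard error 0.22, adjusted p = 4.9e-06) and from 375 and 464 to 128 and 136 CPM (−1.67, standard error 0.19, adjusted p = 2.0e-06). Stmn2 lost its call when libraries were scaled by their totals. Neural crest genes rose in 13 of 17 tested (19 listed), with a median of 3.36, among them Sox10, from 0.570 and 0.247 to 3.59 and 6.34 CPM (3.48, standard error 0.62, adjusted p = 2.3e-04). Mitf, the melanocyte regulator, was the exception and fell from 96.0 and 117 to 20.9 and 22.7 CPM (−2.28, standard error 0.21, adjusted p = 1.8e-07). Surface ectoderm and epidermis genes rose in 13 of 20 tested (21 listed), with a median of 1.96. Dsp, which encodes the desmosomal protein desmoplakin, rose from 5.05 and 5.32 to 43.8 and 36.8 CPM (2.96, standard error 0.25, adjusted p = 9.2e-08). Trp63, the basal-cell regulator, had no read without OHT and reached 1.11 and 1.17 CPM, at least 7.72-fold higher (adjusted p = 0.0025).

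**Figure D3:**
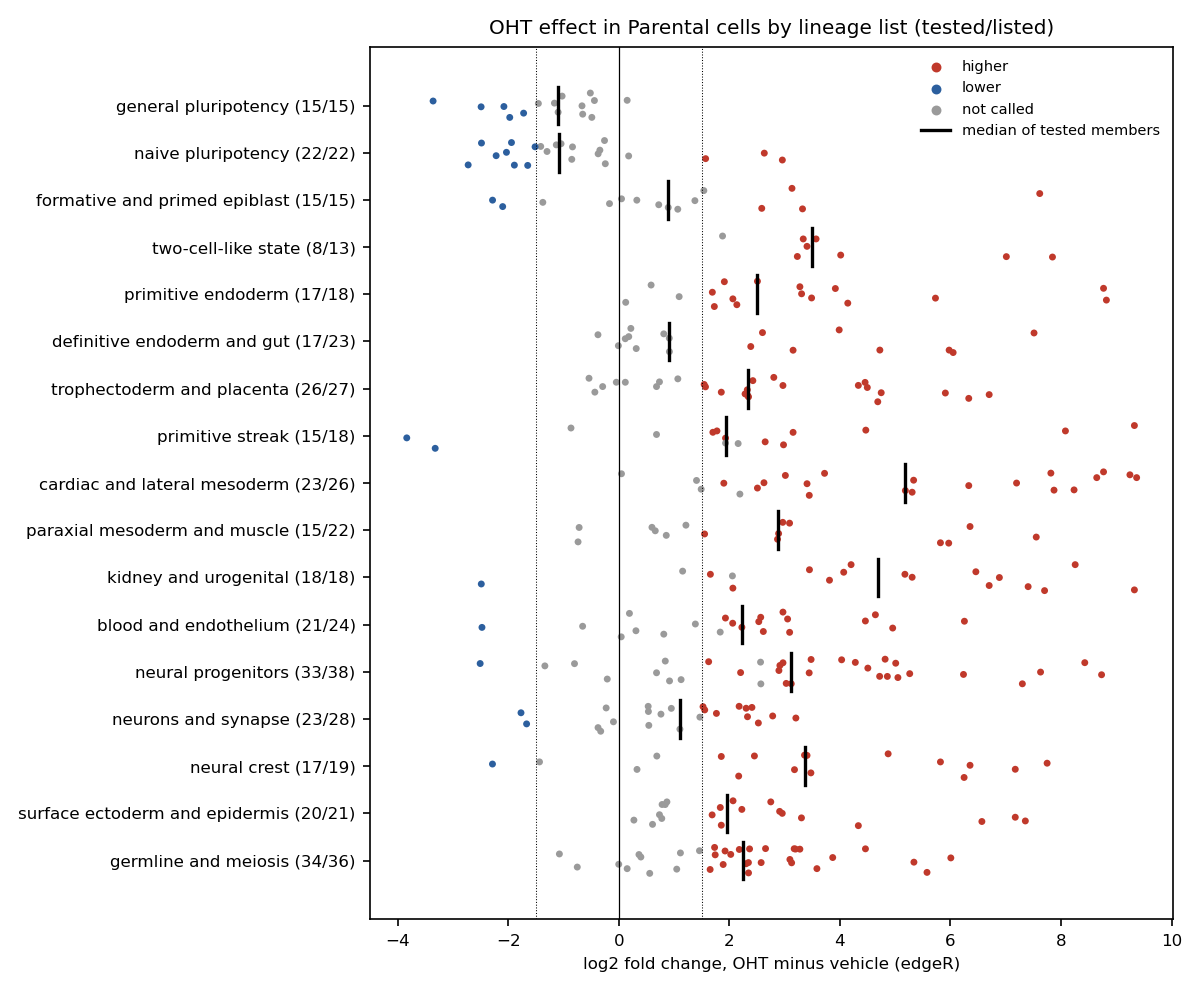
Log2 fold change (OHT minus vehicle, edgeR) in Parental cells on the x axis of each tested gene in each lineage list, 1 row per list with the numbers tested and listed, in red if called higher, blue if called lower and grey if not called; vertical offsets within a row only separate the points, black bars are medians and dotted lines mark a log2 fold change of 1.5 in either direction. Outside the general and naive pluripotency lists no list has more than 2 genes lower, and 19 of the 26 listed cardiac and lateral mesoderm genes are higher.

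Fibroblast genes were followed because cultures of ESCs can hold feeder cells. Of 12 listed genes 6 were tested and 3 rose, with a median log2 fold change of 1.59, and at the FDR alone 5 were higher and 1 lower. Col1a1 rose from 3.34 and 2.35 to 19.6 and 17.7 CPM (log2 fold change 2.68), Col1a2 from 0.163 and 0.124 to 6.23 and 6.14 CPM (5.29) and Fbln2 from 24.04 and 17.4 to 87.1 and 83.1 CPM (2.03). Dcn, Lum, Col3a1 and S100a4 had no read in any of the 4 libraries. The summed level of the list was 1660.0 and 1661 CPM in the −OHT libraries and lay between 1012 and 1176 CPM with OHT, most of it from Fn1 (1612 and 1619.8 CPM without, 858 and 1023 CPM with OHT). The part of feeder cells in these values was not tested.

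Germline and meiosis genes formed a separate class. Of 36 listed, 34 were tested, 24 rose and none fell, with a median log2 fold change of 2.24. Tdrd1, which scaffolds the piRNA pathway (chr19:56826209-56870012), rose from 0.163 and 0.742 to 27.8 and 25.3 CPM (6.01, standard error 0.48, adjusted p = 3.7e-08). Sycp1, a component of the synaptonemal complex that joins homologous chromosomes (chr3:102818499-102936100), rose from 6.44 and 6.43 to 60.03 and 58.3 CPM (3.20, standard error 0.26, adjusted p = 3.9e-08). Neither gene overlapped between the groups, and the replicates of each +OHT pair were close. Dazl, an RNA-binding protein of germ cells, was already at 16.7 and 22.6 CPM and reached 94.5 and 105 CPM (2.35, standard error 0.32, adjusted p = 1.7e-05). Tex101 rose from 1.47 and 2.23 to 65.0 and 81.5 CPM (5.34, standard error 0.41, adjusted p = 2.5e-08). Other members higher were Ddx4, Mael, Tdrd6, Tdrkh, Sycp2, Stra8, Rec8, Meioc, Piwil2, Asz1 and Taf7l, while Sycp3, Dmc1, Stag3, Hormad1 and Tex14 were not called.

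Promoters of this list were mostly occupied by the PCGF6 form of PRC1. A PCGF6 peak lay at 31 of the 36 germline promoters, a RING1B peak at 20 and an H3K27me3 peak at 23, and 9 had PCGF6 without H3K27me3. Among the 38 neural progenitor genes the numbers were 35, 37 and 36, and 1 had PCGF6 without H3K27me3. Motifs of the DNA-binding partners of the PCGF6 complex were counted in the RefSeq start regions (250 bases before to 50 after, GRCm38.p6), on both strands. The E-box CACGTG, which is its own reverse complement, lay in 13 of the 30 germline genes with a start region (43.3%) and in 9.18% of all protein-coding genes. The E2F-type hexamer GCGGGA lay in 13 of 30 (43.3%) and in 29.2% of all, but its share was similar in other lists, such as trophectoderm and placenta (7 of 16, 43.8%) and definitive endoderm and gut (8 of 19, 42.1%), and the letters of the motifs overlapped in 2 of 32851 start regions. Of the 20 germline genes that were higher and had a start region, 9 held CACGTG and 7 GCGGGA, and of the 9 not called, 4 and 6 did. A match is a description of the letters and no evidence of binding. The start regions of Tdrd1 (chr19:56825959-56826258, plus strand, 1 of 3 annotated starts) and Sycp1 (chr3:102936051-102936350, minus strand) show these motifs, in capitals (TCCCGC is GCGGGA on the other strand).
Tdrd1: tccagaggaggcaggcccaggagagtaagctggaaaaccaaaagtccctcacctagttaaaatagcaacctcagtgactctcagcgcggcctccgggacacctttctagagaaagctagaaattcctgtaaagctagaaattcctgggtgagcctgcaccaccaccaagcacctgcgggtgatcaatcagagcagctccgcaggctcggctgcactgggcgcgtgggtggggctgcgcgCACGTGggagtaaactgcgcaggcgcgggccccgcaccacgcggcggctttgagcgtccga
Sycp1: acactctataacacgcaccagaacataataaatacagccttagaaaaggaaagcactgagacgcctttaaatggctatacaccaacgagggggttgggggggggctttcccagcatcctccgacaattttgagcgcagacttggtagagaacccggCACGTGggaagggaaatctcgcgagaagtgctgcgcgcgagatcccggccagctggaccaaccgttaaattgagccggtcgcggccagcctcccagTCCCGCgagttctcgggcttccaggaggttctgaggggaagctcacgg

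A few genes of the 2-cell-like state, which a small share of ESCs enters and which resembles the embryo at its first cleavage, were also higher. Of 13 listed genes 8 were tested and 7 were called, with a median of 3.49, and none of the 13 had a RING1B or H3K27me3 peak at the promoter. Zscan4d was at 0.0815 and 0.371 CPM without and 4.18 and 2.73 CPM with OHT (log2 fold change 4.02, standard error 0.89, adjusted p = 0.0016), and Zscan4c at 0.326 and 0.247 and at 3.59 and 2.53 CPM (3.34, standard error 0.87, adjusted p = 0.006). The levels stayed low. The count was 4 without +OHT replicate 1 and 0 when a mean of at least 1 CPM over the libraries was required, and Zscan4 and Usp17l genes have near-identical copies between which reads can be split.

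Pluripotency genes moved the other way, but not uniformly. In the list of general pluripotency genes 5 of 15 fell and none rose, with a median of −1.10, and in the naive list 8 of 22 fell and 3 rose, with a median of −1.09. Pou5f1 (Oct4), the central factor of the network, was at 488 and 515 CPM without and 301 and 333 CPM with OHT. This drop did not overlap between groups and was under the fold threshold (log2 fold change −0.66, standard error 0.16, adjusted p = 0.003). Nanog was at 361 and 653 CPM and at 218 and 195 CPM (−1.30, standard error 0.29, adjusted p = 0.0016), and passed the fold threshold only without −OHT replicate 1. Sox2 did fall, from 156 and 240.1 to 54.3 and 46.5 CPM (−1.97, standard error 0.23, adjusted p = 3.4e-06).

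Naive markers fell further. Nr0b1 (Dax1), a partner of Oct4, went from 257 and 229 to 38.1 and 35.5 CPM (log2 fold change −2.72, standard error 0.23, adjusted p = 8.1e-08). Zfp42 (Rex1) went from 676 and 814 to 203 and 162 CPM (−2.03, standard error 0.21, adjusted p = 7.0e-07), and Tet2, which oxidises methylated cytosine, from 308 and 296 to 86.8 and 70.7 CPM (−1.94, standard error 0.20, adjusted p = 6.6e-07). Esrrb stayed just inside the threshold, at 508 and 588 CPM without and 206 CPM in both libraries with OHT (−1.41, standard error 0.17, adjusted p = 3.5e-06). Klf2, Nr5a2, Prdm14, Fgf4 and Jam2 also fell, whereas Klf4, Tbx3, Tfcp2l1, Dppa5a and Stat3 were not called. Dppa3 (Stella), which is shared by naive cells and germ cells, rose from 121 and 114 to 335 and 364 CPM (1.57, standard error 0.18, adjusted p = 3.0e-06), and was under the fold threshold, at 1.49, without −OHT replicate 2. Without that library 1 naive gene was higher.

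The formative list, which covers the next stage of the epiblast, gave no common direction, with 4 of 15 genes higher (Pou3f1, Sox3, Etv4 and Car14) and 2 lower (Etv5 and Zic2). Fgf5, its usual marker, was at 0.815 and 0.865 CPM without and 1.96 and 2.44 CPM with OHT (log2 fold change 1.38, adjusted p = 0.11). Otx2, Dnmt3a and Dnmt3b were not called either. The genes with the lowest adjusted p among those lower were Trh, Manba, Aoah, Sept1 and Tdgf1. Aoah, a lipopolysaccharide-degrading enzyme, fell from 48.3 and 47.3 to 1.71 and 2.83 CPM (−4.41, standard error 0.28, adjusted p = 2.9e-09), and the lysosomal enzyme gene Manba from 513 and 488 to 49.8 and 50.0 CPM (−3.33, standard error 0.21, adjusted p = 2.9e-09).

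**Figure D4:**
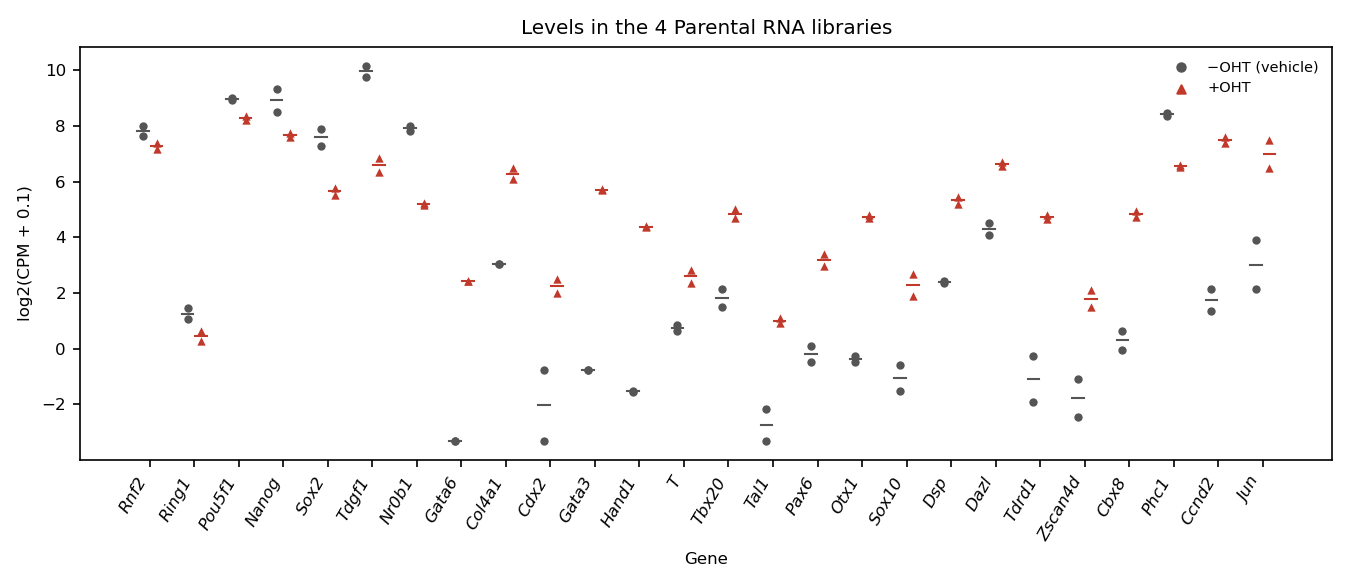
Levels of selected genes on the x axis in the 4 Parental libraries, as log2 of CPM plus 0.1 on the y axis, with each library as a point (grey circles −OHT, red triangles +OHT) and the mean of the 2 replicates as a bar. Gata3, Hand1 and Tdrd1 go from under 1 CPM to above 20 CPM, Tdgf1 and Nr0b1 fall, and the points of Pou5f1 and Rnf2 lie within 1 unit of each other.

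Families of developmental transcription factors were read next. Over 185 listed genes, 153 were tested, 108 (70.6%) rose and 5 fell, with a median of 3.72 (3.35 at the bounds). Hox genes, which give position along the body axis, rose in 26 of 29 tested (39 listed), and all 39 had a RING1B peak at the promoter. With a mean of at least 1 CPM required, 16 Hox genes were higher. Hoxb13 rose from 0.652 and 2.23 to 34.8 and 33.5 CPM (log2 fold change 4.67, standard error 0.44, adjusted p = 2.5e-07) and Hoxa7 from 0.652 and 0.247 to 16.1 and 14.1 CPM (4.93, standard error 0.49, adjusted p = 4.0e-07). All 9 Dlx and Msx genes, all 6 Gata genes and all 4 tested Irx genes of 6 were higher. The same held for 11 of 12 LIM homeobox genes, 7 of 8 tested Pax genes (9 listed) and 9 of 12 tested T-box genes (16 listed). Lhx1 had no read in either −OHT library and 8.63 and 6.92 CPM with OHT, at least 53.1-fold higher (adjusted p = 3.3e-06). Forkhead genes rose in 16 of 35 tested (44 listed), or 10 without −OHT replicate 2 and 6 with a mean of at least 1 CPM. Nkx genes rose in 4 of 9 tested (14 listed). Zic genes were divided, with Zic1 and Zic4 higher and Zic2 and Zic5, which ESCs express, lower, and 1 rather than 2 higher without any single Parental library.

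Genes of cell surface, matrix and excitability were higher in many families that are not regulators. Here too silent genes enter the test only with reads in some group, so listed numbers stand beside the tested ones. Keratins rose in 21 of 28 tested (50 listed) and claudins of tight junctions in 10 of 14 (23 listed). Collagens rose in 24 of 40 (44 listed), matrix metalloproteinases in 18 of 30 (42 listed) and cadherins in 9 of 15 (23 listed). Cldn11 had no read without OHT and 8.28 and 8.38 CPM with it, at least 56.5-fold higher (adjusted p = 1.4e-06). Mmp9, a gelatinase, rose from 0.326 and 0.371 to 19.6 and 21.2 CPM (log2 fold change 5.84, standard error 0.52, adjusted p = 1.4e-07). Both were at or near the floor at the start. Potassium channels rose in 34 of 61 tested (80 listed), voltage-gated sodium and calcium channels in 19 of 34 (40 listed). Neurotransmitter receptors rose in 29 of 56 tested (90 listed). Without −OHT replicate 2 or without +OHT replicate 1 the potassium channels numbered 19 and 22. With a mean of at least 1 CPM required, 12 keratins, 19 potassium channels and 18 neurotransmitter receptors were higher. Kcna1, a neuronal potassium channel, had no read without OHT and 9.65 and 9.85 CPM with it, at least 66.1-fold higher (adjusted p = 1.7e-06). Solute carriers were nearer the background, with 60 of 280 tested (21.4%) higher and 4 lower. Among these Slc7a3, a cationic amino acid transporter, fell from 397 and 415 to 38.8 and 36.9 CPM (−3.42, standard error 0.28, adjusted p = 4.3e-08). Of 1405 olfactory receptor genes 8 had enough reads to be tested.

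Signalling genes were read by role, since ligands and their readers can move apart. In the WNT pathway 12 of 15 ligands rose and none fell, with a median log2 fold change of 4.09. Wnt3, a ligand needed for gastrulation, went from 1.14 and 0.865 to 21.9 and 24 CPM (4.47, standard error 0.40, adjusted p = 1.6e-07). Secreted inhibitors rose in 5 of 8 tested (9 listed), such as Wif1 (1.30 and 1.73 to 20.8 and 16.1 CPM, log2 fold change 3.62, standard error 0.36, adjusted p = 4.0e-07). Notum, an inhibitor that removes the lipid from WNT, fell from 15.3 and 21 to 4.18 and 3.61 CPM (−2.21, standard error 0.30, adjusted p = 1.2e-05). Of 8 Frizzled and LRP receptors 1 rose and 1 fell. Transducers and targets changed in 1 of 9, and Axin2, the usual target gene, was at 24.7 and 26.2 CPM without and 36.9 and 35.7 CPM with OHT (0.51, adjusted p = 0.08).

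BMP genes showed a similar split, apart from the targets. Ligands rose in 3 of 5 tested and antagonists in both of the 2 tested, while 1 of 8 receptors and SMADs rose. The ligand gene Bmp4 was not called (14.6 and 18.9 against 17.7 and 16.9 CPM, log2 fold change 0.05, adjusted p = 0.89). Among target genes 4 of 6 rose and 1 fell, led by Id2, an inhibitor of bHLH factors, from 14.6 and 15 to 268 and 284 CPM (4.22, standard error 0.33, adjusted p = 2.5e-08). Id1 rose too, from 10.8 and 14.2 to 63.7 and 92.2 CPM (2.65, standard error 0.30, adjusted p = 2.3e-06), whereas Id3 was at 113 and 133 against 88.8 and 96.1 CPM (−0.41, adjusted p = 0.1). In the Nodal list 2 of 17 tested genes rose (1 without −OHT replicate 1, −OHT replicate 2 or +OHT replicate 2) and 3 fell, the 3 being Lefty1, Lefty2 and the co-receptor gene Tdgf1. Nodal was at 161 and 235 CPM and at 103 and 114 CPM (−0.86, standard error 0.25, adjusted p = 0.011, not called).

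In the FGF list 4 of 8 ligands rose and 2 fell. Fgf4, the autocrine ligand of ESCs, fell from 101 and 139 to 50.2 and 33.5 CPM (log2 fold change −1.51, standard error 0.25, adjusted p = 1.1e-04), a call close to the threshold that was lost under 4 of the settings tried. Receptor genes Fgfr2 and Fgfr3 rose, the first from 1.71 and 2.1 to 20.7 and 15.9 CPM (3.27, standard error 0.38, adjusted p = 2.5e-06). Among ERK feedback and target genes Etv5 fell from 324 and 347 to 70.9 and 67.1 CPM (−2.28, standard error 0.18, adjusted p = 2.5e-08) and Etv4 rose from 0.733 and 1.61 to 10.2 and 12.5 CPM (3.32, standard error 0.51, adjusted p = 6.1e-05), so the pair of paralogs went in opposite directions. MEK was inhibited in this medium in both groups. Notch ligands rose in 3 of 5 and Hes and Hey genes in 4 of 7, while of 4 receptors none rose and Notch4 fell from 37.7 and 29.4 to 4.36 and 5.56 CPM (−2.76, standard error 0.28, adjusted p = 4.7e-07). The 8 Notch pathway genes higher were 4 without +OHT replicate 1.

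Retinoic acid genes changed in both synthesis and degradation. The synthesis genes rose in 3 of 3 tested (4 listed), with Aldh1a2 going from 5.30 and 4.33 to 37.8 and 36.5 CPM (log2 fold change 2.93, standard error 0.33, adjusted p = 1.9e-06). All 3 Cyp26 genes, whose enzymes degrade retinoic acid, rose, and Cyp26a1 had no read without OHT and 7.17 and 6.43 CPM with it, at least 46.3-fold higher (adjusted p = 7.2e-06). Carriers moved with them, Crabp1 from 23.9 and 18.5 to 166 CPM in both libraries (2.96, standard error 0.21, adjusted p = 7.7e-09). The receptor gene Rarg fell from 44.4 and 38.8 to 12.8 and 15.6 CPM (−1.55, standard error 0.24, adjusted p = 6.6e-05), a call lost without −OHT replicate 1, without +OHT replicate 1 and with scaling by library totals. Hedgehog genes were close to the background, with 2 of 12 tested higher (Dhh and Boc) and Ptch1, Gli1 and Gli2 among those not called.

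Genes of the Polycomb complexes themselves were partly affected. Of 27 PRC1 subunit genes 6 were higher and 1 lower. Cbx8, a CBX subunit that ESCs hold at a low level, rose from 1.47 and 0.865 to 26.2 and 31.1 CPM (log2 fold change 4.55, standard error 0.45, adjusted p = 4.2e-07). Pcgf5, of variant PRC1, rose from 6.19 and 7.17 to 25.5 and 25.3 CPM (1.93, standard error 0.27, adjusted p = 2.4e-05). Phc1, the polyhomeotic subunit of ESCs, fell from 354 and 332 to 97.0 and 91.5 CPM (−1.86, standard error 0.18, adjusted p = 2.5e-07), while Phc2 rose. Cbx7, Rybp, Pcgf1, Pcgf2, Pcgf6 and Kdm2b were not called. Among 12 PRC2 subunit genes Phf19 alone was called, from 2.36 and 1.98 to 7.52 and 7.21 CPM (1.75, standard error 0.41, adjusted p = 0.0023). Ezh2, the methyltransferase gene, was at 104 and 88.4 CPM and at 72.9 and 70.1 CPM (−0.43, adjusted p = 0.084).

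Cell cycle genes split between regulators and machinery. Cdkn1c (p57), a kinase inhibitor, rose from 1.14 and 2.23 to 25.8 and 27.6 CPM (log2 fold change 4.03, standard error 0.37, adjusted p = 2.0e-07), and Cdkn2b (p15) from 4.89 and 4.33 to 24.9 CPM in both libraries (2.42, standard error 0.31, adjusted p = 7.1e-06). Cdkn2a, at 3.67 and 13.5 CPM without and 5.81 and 7.02 CPM with OHT, had overlapping groups (−0.38, adjusted p = 0.6). None of 24 genes of S and G2/M phase was called. At the FDR alone 11 of them were lower and none higher, with a median of −0.47, such as the replicative helicase gene Mcm2 (527 and 537 against 312 and 320.3 CPM, −0.75, standard error 0.19, adjusted p = 0.0037). Histone genes of the Hist clusters, whose mRNA mostly lacks a poly-A tail, were lower in 6 and higher in 1 of 47 tested, with a median of −0.99, and the number lower was 14 without −OHT replicate 1, 1 without −OHT replicate 2, 2 without +OHT replicate 1 and 12 without +OHT replicate 2.

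Stress and p53 targets gave single responses. In the p53 list Btg2 rose from 50.1 and 42.5 to 221 and 241 CPM (log2 fold change 2.32, standard error 0.20, adjusted p = 1.2e-07) and Plk2 also rose, while Gdf15 fell. Plk2 lost its call without −OHT replicate 2 and Gdf15 without −OHT replicate 1. Cdkn1a (p21) went from 395 and 347 to 715 and 769 CPM (1.00, standard error 0.16, adjusted p = 9.9e-05, under the fold threshold), and Mdm2, Ccng1 and Bax were not called. In the stress list 6 of 15 genes rose and Chac1 fell. Immediate-early genes, which respond to serum and handling within an hour, differed between the +OHT replicates. Jun was at 14.9 and 4.33 CPM without and 89.8 and 182 CPM with OHT (3.77, standard error 0.68, adjusted p = 2.7e-04), and Fos at 28 and 5.69 and at 125 and 1009 CPM (5.03, standard error 1.32, adjusted p = 0.0059). Egr1 was at 10.8 and 11.2 CPM without and 9.22 and 368 CPM with OHT, so its call (4.10, standard error 1.51, adjusted p = 0.042) rested on +OHT replicate 2, and its log2 fold change was −0.25 without that library. Socs3, listed among the naive genes and induced by LIF, had the same profile, 29 and 22.1 against 73.8 and 326 CPM, and lost its call without that library. Fos lost its call without it as well, and Jun kept it, at 3.18.

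Housekeeping families held few calls. None of the cytosolic ribosomal protein genes (88 tested, median −0.27), splicing factors (44 tested, −0.43), cholesterol synthesis genes (18 tested, −0.29) or mitochondrially encoded genes (22 tested, 0.09) was called in either direction. At the FDR alone, where 12.4% of all genes were lower, 18 splicing factors were lower and 1 higher. By that rule 4 ribosomal protein, 3 cholesterol synthesis and 0 mitochondrially encoded genes were lower, and 0, 1 and 0 higher. The medians of mitochondrial ribosomal protein genes (−0.14), respiratory complex I genes (−0.04) and RNA polymerase subunits (−0.18) turned positive with scaling by library totals (0.06, 0.16 and 0.02), so no direction is given for them. In glycolysis the phosphofructokinase gene Pfkp fell from 847 and 876 to 298 and 286 CPM (log2 fold change −1.56, standard error 0.17, adjusted p = 1.2e-06), a call lost with scaling by library totals, and 16 of 17 genes were not called. At the FDR alone 7 of the 17 glycolysis genes were lower and 0 higher, with a median of −0.49. Zinc finger genes named Zfp had 19 of 377 tested lower and 13 higher and a median of −0.57. The number lower was 32 without −OHT replicate 1 and also without +OHT replicate 1, and 10 with scaling by library totals, and the number higher was 8 without −OHT replicate 2 and 7 without +OHT replicate 2. At the FDR alone 153 (against 12.4% of all genes) were lower and 21 higher. Zfp459 fell from 79.0 and 112 to 12.3 and 10.3 CPM (−3.07, standard error 0.25, adjusted p = 4.5e-08). Among 38 proteasome genes tested only Psmb8 and Psmb9 were called, the inducible subunits of the immunoproteasome, with Psmb9 going from 6.44 and 8.90 to 40.4 and 54.4 CPM (2.64, standard error 0.26, adjusted p = 4.7e-07).

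By biotype, protein-coding genes were called higher most often (2574 of 15068, 17.1%) and lower in 214 cases (1.42%). Long intergenic noncoding RNAs were higher in 65 of 590 cases (11.02%) and lower in 37 (6.27%), more often lower than the background of 1.83%. The clone-named RNA 4930519F16Rik fell from 23.3 and 26.1 to 1.88 and 2.44 CPM (log2 fold change −3.51, standard error 0.30, adjusted p = 9.4e-08). Processed pseudogenes were higher in 11 of 938 cases (1.17%) and lower in 22 (2.35%). By chromosome, the X had the highest share of genes higher (135 of 639, 21.1%) and 23 lower (3.60%), followed by chromosome 6 (19.6%), and chromosome 17 had the lowest share among the autosomes (11.6%).

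Imprinted genes, which are expressed from 1 parental allele, were higher in 10 of 31 tested and lower in 1. Dlk1, a paternally expressed ligand-like protein, rose from 0.244 and 0.865 to 16 and 23.1 CPM (log2 fold change 5.24, standard error 0.46, adjusted p = 1.2e-07). Igf2 rose from 0.0815 and 0 to 4.27 and 4.39 CPM (6.16, standard error 0.96, adjusted p = 6.4e-05), and its neighbour H19, which is expressed from the other allele, from 0.326 and 0.989 to 3.67 and 3.9 CPM (2.62, standard error 0.61, adjusted p = 0.0024). H19 lost its call without −OHT replicate 1. Zdbf2 fell from 91.2 and 74.4 to 22.7 and 18.7 CPM (−2, standard error 0.25, adjusted p = 6.2e-06). Meg3, Peg3, Mest, Snrpn and Igf2r were not called, and the reads do not tell the alleles apart.

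The same treatment in the other lines gave the size of the Parental response beside cells that keep some PRC1 or lose PRC2. In RING1B WT cells 1.34% of the genes tested were higher and 0.0386% lower with OHT, in RING1B I53S cells 12.8% and 1.04%. The 2748 genes were chosen on Parental values, so a smaller effect elsewhere is partly fixed by that choice, and the differences between lines were tested gene by gene over all genes. In RING1B WT cells the median of these genes was 1.18 on the log2 scale, 232 were called higher and 195 differed from the Parental effect. Over all genes the OHT effect of RING1B WT cells was above the Parental effect for 79 (0.435%) and below it for 200 (1.1%). The lower number was 43 without RING1B WT +OHT replicate 1 and between 68 and 195 with other libraries left out. Gata3 rose by 2.13 on the log2 scale in RING1B WT cells, a difference of −4.57 from Parental cells (standard error 0.54, adjusted p = 1.1e-04). Tdgf1, lower by −3.36 in Parental cells, had −0.17 in RING1B WT cells, a difference of 3.19 (standard error 0.28, adjusted p = 6.5e-06).

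For the catalytic mutant RING1B I53S the 2748 genes had a median of 2.34 and 2020 were called higher. No gene (0%) passed both thresholds for a different OHT effect than in Parental cells in either direction, by edgeR or by DESeq2, and 488 had an unadjusted p under 0.05 in edgeR. A count of 0 does not show equal effects. In simulated counts for the difference between RING1B WT and Parental cells, edgeR called 6% of log2 differences of 1 and 72% of those of 2. DESeq2 called 4% and 62%. Recovery of genes that start near the floor was not tested, and the RING1B I53S difference was not simulated. List medians in this line were 2.40 for primitive endoderm, 3.83 for cardiac mesoderm, 2.54 for neural progenitors, 1.75 for germline genes and −0.83 for naive pluripotency genes. The germline genes Sycp1 and Dazl had log2 fold changes of 1.94 and 1.44 in RING1B I53S cells against 3.20 and 2.35 in Parental cells, and neither difference was called. Smaller values were not particular to germline genes. Over the 2748 genes, which were chosen on Parental values, the median difference from Parental cells was −0.48.

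Eed fl/fl cells, which lose the PRC2 core subunit EED, were fitted together with the 12 other libraries over 27663 genes. Their libraries held reads for 43762 to 46757 gene names, against 23578 to 28032 in the others, and the labels do not say which clone each came from. With OHT 42 genes (0.152%) were higher in them and 7 (0.0253%) lower. The OHT effect was higher than in Parental cells for 191 genes (0.69%) and lower for 1096 (3.96%), and the latter count was 715 without Eed fl/fl −OHT replicate 2 and 1699 without Eed fl/fl −OHT replicate 1. The Parental set of higher genes had a median of 0.44 in Eed fl/fl cells on the log2 scale, 22 of 2745 being called. Gata3 had 0.63 there, a difference of −6.04 (standard error 0.45, adjusted p = 3.7e-10), and the cyclin gene Ccnd2 0.17, a difference of −5.58 (standard error 0.44, adjusted p = 7.1e-10). Among germline genes 19 of the 34 tested had a lower effect in Eed fl/fl than in Parental cells, with a median of 0.07. Serpine2, a secreted protease inhibitor, had a log2 fold change of 1.83 in Eed fl/fl cells, and its difference from Parental cells in the same fit, −0.85, missed the threshold (standard error 0.27, adjusted p = 0.059).

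**Figure D5:**
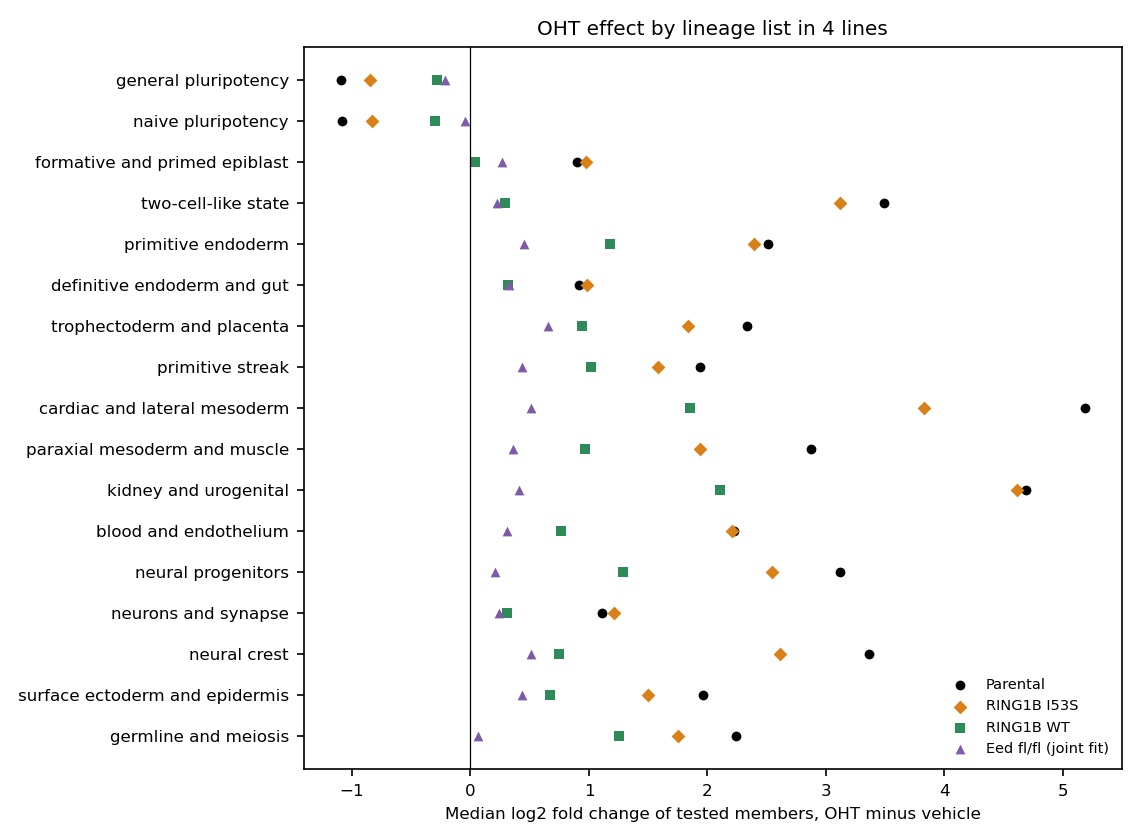
Median log2 fold change (OHT minus vehicle of the same line) of the tested genes of each lineage list on the x axis, 1 row per list, in Parental (black circles), RING1B WT (green squares), RING1B I53S (orange diamonds) and Eed fl/fl cells (purple triangles, from the joint fit). In that order the medians are 5.19, 1.86, 3.83 and 0.51 for cardiac and lateral mesoderm and −1.09, −0.30, −0.83 and −0.04 for naive pluripotency genes.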

How the data were processed

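RNA was measured in 16 libraries by SMART-seq2, and chromatin by ChIP-seq with 1 library per antibody and condition. The authors deposited raw read counts per gene name, made with STAR 2.7 and featureCounts without strand on mm10 with a GENCODE annotation, and peak lists in which the score is the −log10 p-value of MACS2 2.1.1 after alignment with Bowtie 1.2.2. Versions are from the submitters' processing notes. The authors' comparison tables (fold changes and p-values, DESeq2 1.20) were not used.

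From the counts, 12 libraries (every line except Eed fl/fl) were filtered by edgeR's filterByExpr, scaled by TMM and fitted together (edgeR 4.0.16, limma 3.58.1, R 4.3.3, quasi-likelihood test, 6 groups of 2, 6 residual degrees of freedom, common biological coefficient of variation 0.181). CPM are relative to the TMM-scaled library size and are not corrected for gene length, so levels are not compared between genes. Differences between lines are interaction terms, and those with Eed fl/fl cells come from a fit of all 16 libraries (coefficient 0.205). Calls needed a log2 fold change of 1.5 in size with an FDR under 0.05. In counts simulated for 18154 genes in the Parental comparison, edgeR called 4%, 86%, 100% and 100% of genes changed by a log2 fold change of 1, 2, 3 and 5, with 2 false calls. Recovery of genes that start near the floor without OHT was not tested, so these percentages are not to be read for them. Of the 2574 protein-coding genes called higher, 287 started under 0.1 CPM, 691 between 0.1 and 0.5 CPM and 841 between 0.5 and 2 CPM. Total counts of the 4 libraries ranged from 8967223 to 12743460.

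Peaks with a score of at least 10 were assigned to genes within 2.5 kb of a start. Wilson 95% intervals and floors of 3 counts cover counting error only. A total of 114 gene names stand for several gene models. Start regions and motifs came from RefSeq, 250 bases before to 50 after each start.

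The comparison, its members and the 34 gene lists and 44 families were chosen with earlier results of these data known. Named genes were Rnf2 and Ring1, the first member of each list with up to 3 called members of lowest adjusted p, up to 2 per family, the 5 genes of lowest adjusted p in each direction and 3 per interaction. Of 196 such genes 19 were chosen after their values were seen, as were members named without values. Alternatives were DESeq2 1.42.0, RLE scaling, library totals, no filter, a mean of at least 1 CPM, a replicate block, Parental libraries alone, FDR alone, each library left out, a 1 kb promoter and a peak score of 20. Tables and figures were made with Python 3.11.15, numpy 2.4.6, scipy 1.17.1 and matplotlib 3.10.9. A few listed genes are counted in their lists but not reported here by name.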

Additional observations from a re-analysis of the deposited data

Results flagged for a closer look

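The OHT effect differed between lines by an interaction term in edgeR's quasi-likelihood test. Against Parental cells, RING1B WT cells had a higher effect for 79 genes and a lower effect for 200. The 3 named genes with the lowest adjusted p for this difference were all lower in Parental cells with OHT. On the log2 scale Tdgf1 differed by 3.19 (with a standard error of 0.28, adjusted p = 6.5e-06), Tdgf1-ps1 by 3.35 (0.32, adjusted p = 1.4e-05) and Manba by 2.77 (0.28, adjusted p = 2.0e-05). Tdgf1-ps1 is a near-identical copy of Tdgf1, so reads could be split between them and both values are uncertain.

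Eed fl/fl cells had a higher OHT effect than Parental cells for 191 genes and a lower effect for 1096. Gata3 differed by −6.04 (standard error 0.45, adjusted p = 3.7e-10), Ccnd2 by −5.58 (0.44, adjusted p = 7.1e-10) and Trh by 4.00 (0.34, adjusted p = 3.4e-09). The Eed fl/fl libraries come from another cell line, so line and deletion cannot be told apart in these differences.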

How the results depend on the processing

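Of the named genes' values under the alternatives, 2170 kept their direction and their side of the thresholds, 44 lost the call, 2 gained it (Nanog and Esrrb without Parental −OHT replicate 1) and 1 reversed, Egr1, from −0.25 without Parental +OHT replicate 2 to 5.07 without Parental +OHT replicate 1. The count of genes lower in Parental cells (333) was 211 with library totals and 2250 at the FDR alone. Leaving out single libraries gave 2146 to 2468 genes higher and 268 to 333 lower. Genes with a higher effect in RING1B WT than in Parental cells (79) numbered 52 with library totals, 152 at the FDR alone and 44 to 82 with a library left out. Those with a lower effect (200) numbered 400 without a filter and 43 to 195 with a library left out. For Eed fl/fl, the 0.69% of genes with a higher effect became 0.233% without a filter, 1.7% at the FDR alone and 0.299% to 0.762% with a library left out, and the 3.96% with a lower effect became 3.56% without a filter and 2.34% to 5.74% with a library left out. The count for RING1B I53S stayed 0 under these alternatives. With a peak score of 20, promoter shares of genes higher were 52.0% for RING1B, 32.5% for H2AK119ub1 and 56.95% for H3K27me3, and of genes lower 4.20%, 4.20% and 1.502%. A 1 kb promoter gave 59.9% for H2AK119ub1 and 77.8% for H3K27me3 among genes higher. The causes were not tested. Replicate numbers correlated between groups at −0.00 to 0.30, over 0.1 in 9 of 15 pairs of groups (0.101 between the Parental groups) but not in all, and the labels give no shared source, so the numbers were not used as a pairing, although a shared structure is not excluded. The fit with a replicate block gave 2835 genes higher and 341 lower in Parental cells, 92 and 271 for the RING1B WT difference, 0 and 0 for RING1B I53S, and 196 and 1092 for Eed fl/fl, and lost the call of Egr1 (2.59). Log2 fold changes near 1 lie under the fold threshold and are mostly not called, though many pass at the FDR alone.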
